A study of Ovis aries with 6 samples.

Results

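The HOX genes of sheep skin were taken as the rows whose symbol is HOXA, HOXB, HOXC or HOXD followed by a number from 1 to 13 and nothing else. This rule, which uses the symbol alone, found 34 of the 28394 genes in the files, with 9 genes in each of the HOXA, HOXB and HOXC clusters and 7 in the HOXD cluster. The values come from skin of 3 Super Merino (SM) sheep, a fine wool breed labelled 128, 30034 and 30126, and 3 Small Tail Han (STH) sheep, a coarse wool breed labelled XW3, XW5 and XW8. All 6 animals were untreated ewes of 9 months by the sample records, although the methods of the study give a younger age, and they were kept on the same farm and feed. The skin was removed behind the shoulder blade in October, at a time of year when wool follicles were thought to be growing, so 1 body site at 1 season was sampled in both breeds. Each sheep gave 1 paired-end library of purified mRNA, with total counts between 28870583 and 44645091. Whole skin holds follicles, epidermis, dermis, glands, vessels and muscle, and in such bulk RNA fewer cells of a type and less RNA per cell cannot be told apart.

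HOX genes encode transcription factors that bind DNA through a homeodomain and specify position along the body axis. They lie in clusters whose gene order follows the order in which they are used along the embryo, from paralogue 1 at the head end to paralogue 13 at the tail end and in the limb tips and genital tubercle. Adult dermal fibroblasts keep a HOX pattern that depends on the body site from which they come. HOXC13 has an additional role in the hair follicle, where it acts in the differentiating matrix, cortex and cuticle, binds the promoters of hair keratin genes, and is required for hair and nail formation.

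In Oar_v4.0 the 34 genes form the HOXA cluster on chromosome 4 (106595 bases between its outermost members), the HOXB cluster on chromosome 11 (170038 bases), the HOXC cluster on chromosome 3 (115264 bases) and the HOXD cluster on chromosome 2 (95300 bases). HOXC13 lies on chromosome 3 from 132260521 to 132269131 on the minus strand, at the outer end of its cluster and 7266 bases from HOXC12. All members of one cluster lie on the same strand. Several members of the HOXA cluster overlap on that strand: HOXA3 spans HOXA4, HOXA5 and 14795 bases of HOXA9, and HOXA9 also covers HOXA5 and the row LOC105606599, so the division of reads among these genes is uncertain. HOXB3 overlaps LOC105608416 on the opposite strand by 1816 bases, and whether strand was used in counting is not given in the sources used here.

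Of the 34 genes, 25 had at least 10 counts in at least 3 sheep and were tested, and 9 were not. The untested genes were HOXA5, HOXA10, HOXA11, HOXA13, HOXB1, HOXB13, HOXD1, HOXD12 and HOXD13. Of these, 5 had no count in any sheep, namely HOXA11, HOXA13, HOXB1, HOXB13 and HOXD12. For a count of 0 a floor of 3 counts was set, between 0.0672 and 0.104 CPM at these depths. CPM is the count scaled to a common library size. The floor covers counting error only. It is too low as an upper limit, because by the study's mapping totals both reads of a pair are counted. Among the tested genes HOXA4 reached 10 counts in the STH sheep only.

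HOXC13 was the most highly expressed HOX gene in all 6 sheep. Levels of different genes are compared as CPM normalised by edgeR's TMM method and divided by the exon length in kilobases, which removes the effect of gene length. On this scale HOXC13 stood at 89.4, 108 and 178 CPM per kilobase in the SM and at 107, 82.8 and 88.0 in the STH sheep, with the animals always listed in the order 128, 30034, 30126 and XW3, XW5, XW8. It was above between 95.2% and 97.0% of the 15320 tested genes in each sheep. The next HOX gene was HOXC6 in 5 sheep and HOXC8 in XW3, and HOXC13 was between 3.90 and 8.72 times as high as that gene. Of all counts assigned to the 34 HOX genes, HOXC13 took from 63.6% in XW8 (95% exact Clopper-Pearson interval 62.8 to 64.5) to 78.7% in SM sheep 30126 (78.2 to 79.2), with a median of 65.8%. These intervals cover counting error only, and they are too narrow even for that. Both reads of a pair are counted, and reads of amplified libraries are not independent molecules.

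**Figure D1:**
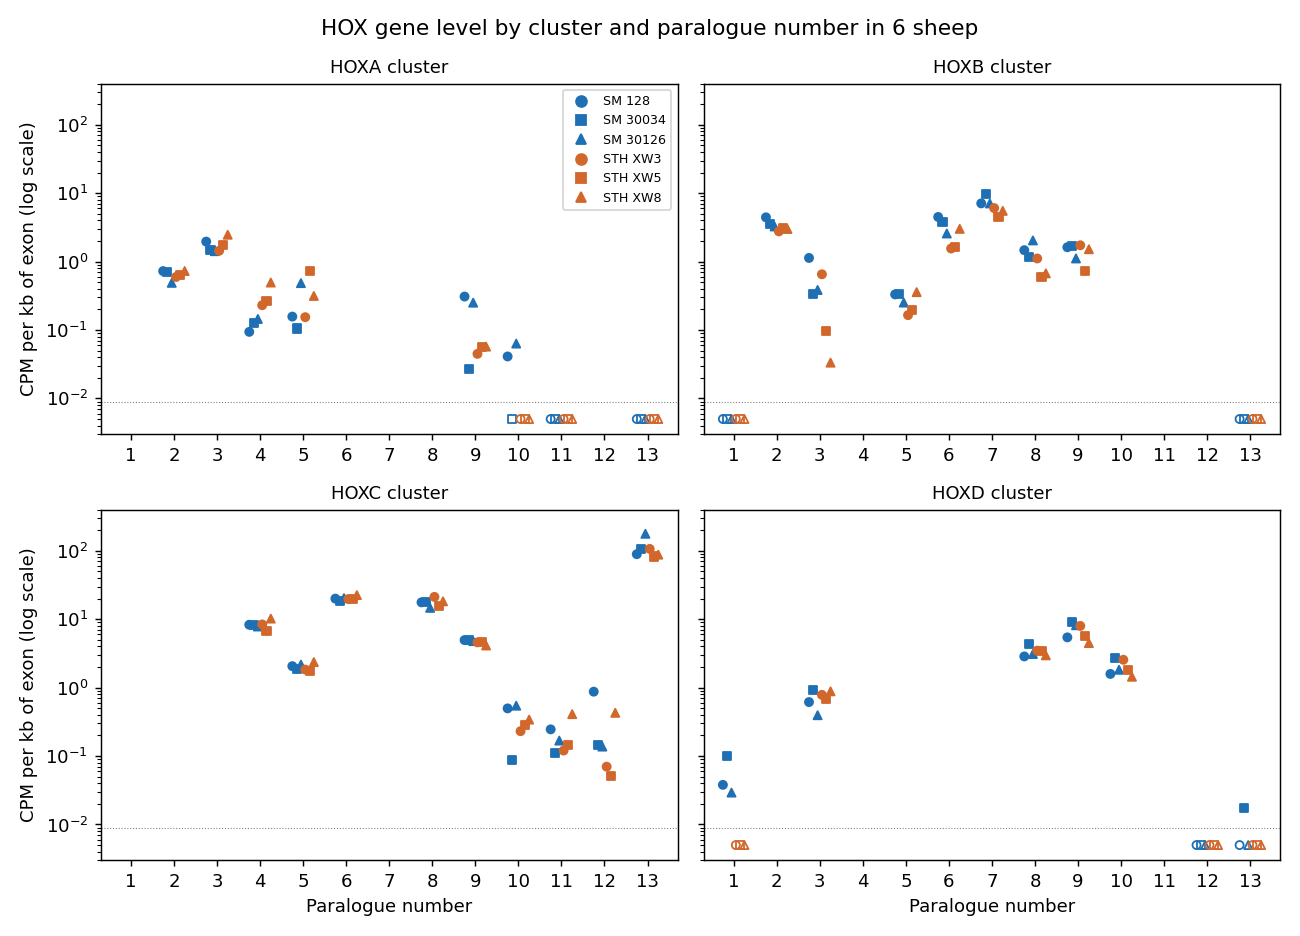
Level of the HOX genes, all but 1, as TMM-normalised CPM per kilobase of exon (log scale) against its paralogue number, 1 panel per cluster and 1 point per sheep (blue SM, orange STH). Open symbols below the dotted line are counts of 0 and have no position on the scale. HOXC13 stands between 82.8 and 178, while HOXC10, HOXC11 and HOXC12 of the same cluster lie below 1 in every sheep.

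Within the HOXC cluster the level did not change evenly with position. The median over the 6 sheep was 8.28 CPM per kilobase for HOXC4, 1.97 for HOXC5, 19.9 for HOXC6, 17.9 for HOXC8 and 4.74 for HOXC9, and it then stood at 0.311 for HOXC10, 0.158 for HOXC11 and 0.140 for HOXC12 before the 98.1 of HOXC13. HOXC12, the neighbour of HOXC13, was detected with 49, 12 and 10 counts in the SM and with 4, 4 and 24 in the STH sheep. The ratio of HOXC13 to HOXC12 per kilobase therefore ranged widely, from 102 in sheep 128 to 1619 in XW5. In the other clusters the end genes were at or near 0: HOXA13 and HOXB13 had no count, and HOXD13 had 2 counts in sheep 30034 and none elsewhere.

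The HOXC genes from HOXC4 to HOXC9 varied little across animals. HOXC6, a trunk HOX gene, had 22.5, 20.6 and 22.9 CPM in the SM and 22.1, 22.0 and 25.3 in the STH sheep. HOXC8, a trunk gene of the same cluster, had 38.6, 39.6 and 32.0 CPM in the SM and 46.4, 34.6 and 39.9 in the STH sheep. The breeds overlapped in both genes. The highest sheep was 1.23 times the lowest for HOXC6, 1.21 times for HOXC9, 1.37 times for HOXC5, 1.45 times for HOXC8 and 1.53 times for HOXC4. For the sparsely counted HOXC10, HOXC11 and HOXC12 the same ratio was 6.21, 3.74 and 17.1.

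The order of the most highly expressed members was nearly the same in each animal. HOXC13 ranked first throughout, and HOXC6 and HOXC8 held ranks 2 and 3 and changed places. HOXC4 and HOXD9 ranked between 4 and 6, HOXB7 between 4 and 7 and HOXC9 at 6 or 7. HOXC4, HOXD9 and HOXB7 changed places between animals. HOXC9 was below HOXC4 and HOXD9 in every sheep, at 4.13 to 5.02 CPM per kilobase against 6.68 to 10.2 for HOXC4. Below them came HOXD8 and HOXB2, both between rank 8 and 10, and HOXB6 between 8 and 14.

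When the genes were grouped by paralogue number, the sum per kilobase had medians of 22.6 for group 6 and 22.0 for group 8, followed by 13.3 for group 9, 8.39 for group 4 and 6.57 for group 7. Groups 2, 3 and 5 lay between 2.60 and 3.74, group 10 at 2.28, and groups 11 and 12 at 0.158 and 0.140. Group 13 stood at 98.1 through HOXC13 alone. In each group from 2 to 13 the same member led in all 6 sheep. HOXC members led groups 4, 5, 6, 8, 11, 12 and 13, HOXD9 and HOXD10 led groups 9 and 10, HOXA3 led group 3, HOXB2 led group 2, and HOXB7 was the only member of group 7 found by its symbol.

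Summed over its genes, the HOXC cluster held between 79.3% and 87.0% of the HOX level per kilobase. The HOXB cluster held between 6.37% and 11.5%, the HOXD cluster between 5.15% and 8.52%, and the HOXA cluster between 1.46% and 3.485%. The clusters were ordered HOXC, HOXB, HOXD and HOXA in 4 sheep, whereas HOXD was above HOXB in XW3 and XW5. The order in each sheep was the same when HOXC13 was left out, with the remaining HOXC genes at 49.1 to 58.7 CPM per kilobase against at most 20.6 for any other cluster.

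**Figure D2:**
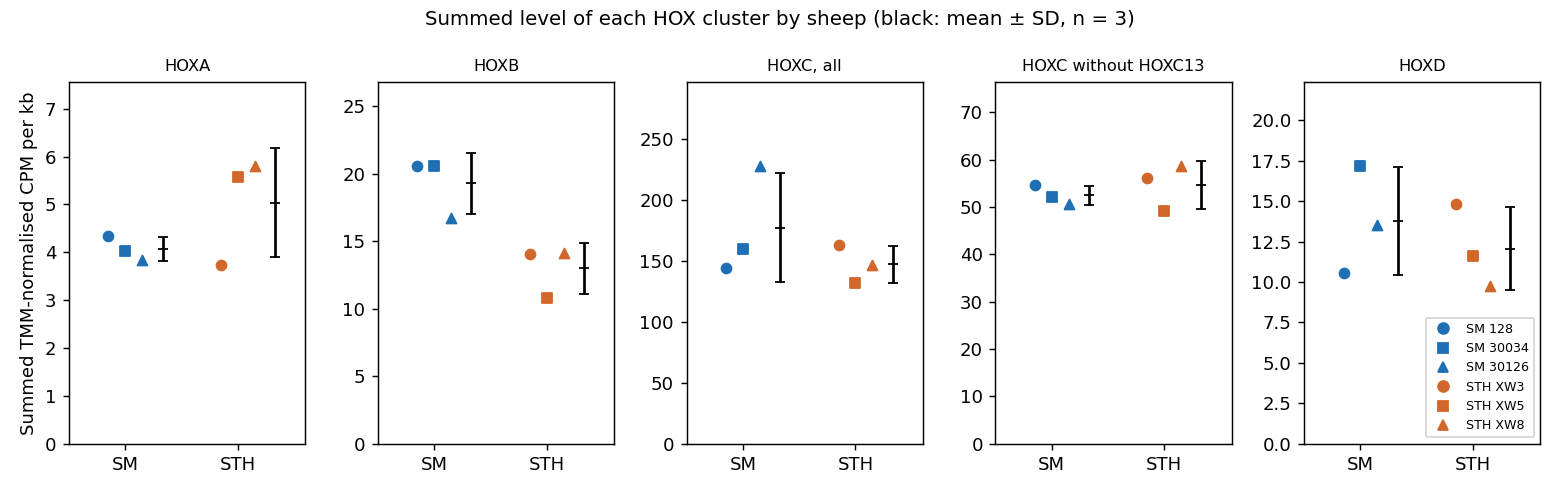
Sum of TMM-normalised CPM per kilobase over the genes of each HOX cluster in each sheep, with the mean and SD of 3 sheep per breed in black and each axis starting at 0. The HOXB sums of the SM sheep (16.7 to 20.6) lie above those of the STH sheep (10.8 to 14.1), and the breeds overlap in the other panels.

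The breeds were compared gene by gene with edgeR's quasi-likelihood test over all 15320 tested genes, with Benjamini-Hochberg adjustment. A gene passed when its adjusted p was under 0.05 and its fold change over 1.5 in either direction, and fold changes are given on the log2 scale as SM over STH with their standard error (SE). None of the 25 tested HOX genes passed, against 0.0% of all tested genes, and their adjusted p lay between 0.255 and 0.961. By DESeq2 and by edgeR's likelihood ratio test the count was also 0, where 2.87% and 2.30% of all tested genes passed. At an unadjusted p under 0.05 there were 4 HOX genes, which is 16.0% of the 25 beside 18.0% of all tested genes. Of these, 3 (HOXB6, HOXB7 and HOXA9) had estimates above 0, beside 7.21% of all tested genes, and the remaining 1 was HOXA4, which reached the count filter through the STH sheep alone, so that its p and its direction are not independent of the filter. The breeds did not overlap in 5 of the 25 genes, HOXA4 included, beside 25.6% of all tested genes, and 4 of the 5 were higher in SM, beside 12.3%. Of the 25 genes 16 had a log2 fold change above 0, or 64.0% beside 51.4%. Taken over both directions, the shares at an unadjusted p under 0.05 and without overlap were no higher than those of the whole data set. For genes higher in SM, with 3 and 4 of the 25, both shares were above those of the whole data set. For genes lower in SM, with HOXA4 alone, both shares were below. The median log2 fold change over the 25 genes was 0.14, beside 0.02 over all tested genes.

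**Figure D3:**
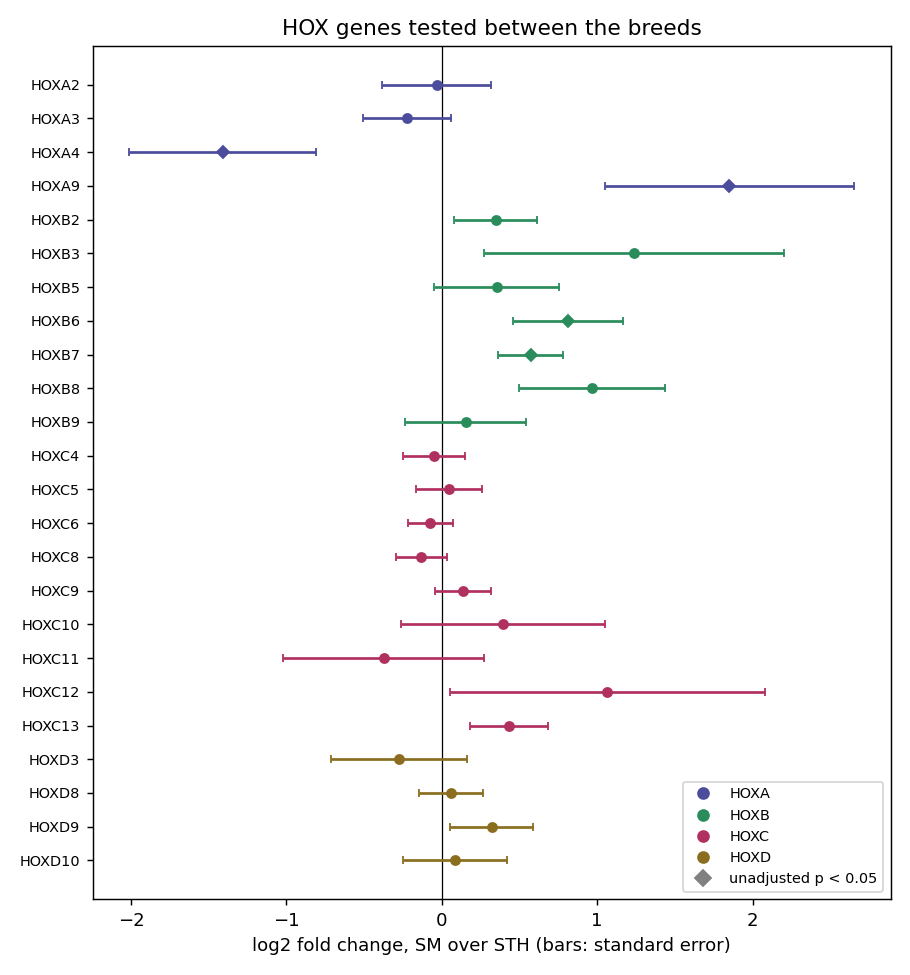
Log2 fold change of the tested HOX genes, all but 1, SM over STH, with bars of 1 standard error from edgeR's quasi-likelihood fit, coloured by cluster, and diamonds where the unadjusted p was under 0.05. All 7 HOXB genes lie to the right of 0, from 0.16 to 1.24, and the well counted HOXC genes from HOXC4 to HOXC9 lie within 0.14 of 0.

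HOXC13 was higher in SM than in STH sheep by less than the spread between animals. Its normalised counts were 282, 340.5 and 559.5 CPM in the SM and 336, 261 and 277 in the STH sheep. Only sheep 30126 stood clear of the others, and the breeds overlapped. The SM mean was 394 ± 146 CPM (SD, n = 3) and the STH mean 291 ± 39.8 CPM (SD, n = 3), with a log2 fold change of 0.43 (SE 0.25, adjusted p = 0.352, edgeR's quasi-likelihood test). Without sheep 30126 the log2 fold change was 0.11 (SE 0.16, adjusted p = 0.800). Sheep 30126 also had the largest part of its counted fragments assigned to genes, 77.3% against 65.5% to 71.0% in the other 5, and with this share as a covariate the log2 fold change was 0.10 (SE 0.11).

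Genes that act with or under HOXC13 in the follicle were highest in the same animal. Of the 8 genes listed for this role, 4 were found by symbol and tested. All 4 had estimates above 0 (median 0.61 on the log2 scale), beside 51.4% of all tested genes, and none passed the thresholds. At an unadjusted p under 0.05, 2 of the 4 were higher in SM, beside 7.21% of all tested genes. The same 2, FOXN1 and DLX3, were higher in SM without overlap, beside 12.3%. FOXN1, a transcription factor that is a direct target of HOXC13 and is needed for hair shaft formation, had 588, 561 and 786 CPM in the SM and 512, 274 and 427 in the STH sheep. The breeds did not overlap, and the log2 fold change was 0.67 (SE 0.24, unadjusted p = 0.0229, adjusted p = 0.255, edgeR). DLX3, a homeodomain factor of the follicle matrix, had 489, 463 and 706 CPM in the SM and 437, 313 and 383 in the STH sheep, also without overlap, with a log2 fold change of 0.55 (SE 0.21, unadjusted p = 0.0271, adjusted p = 0.256, edgeR).

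Of the hair keratins whose genes HOXC13 is known to bind, KRT35 had 1215, 1318 and 2883 CPM in the SM and 1493, 809.5 and 984 in the STH sheep. Its log2 fold change was 0.72 (SE 0.36, adjusted p = 0.308, edgeR). KRT32, a cuticle keratin, had 159, 208 and 339 CPM in the SM and 174, 126 and 186 in the STH sheep, with a log2 fold change of 0.54 (SE 0.28, adjusted p = 0.316, edgeR). In both keratins the breeds overlapped. Of the follicle cortex markers KRT35, LEF1 and MSX2 were found, and their summed level was 1481 to 3282 CPM in the SM and 1039.6 to 1766 in the STH sheep. It too was highest in sheep 30126, and its part in the HOXC13 difference was not tested.

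**Figure D4:**
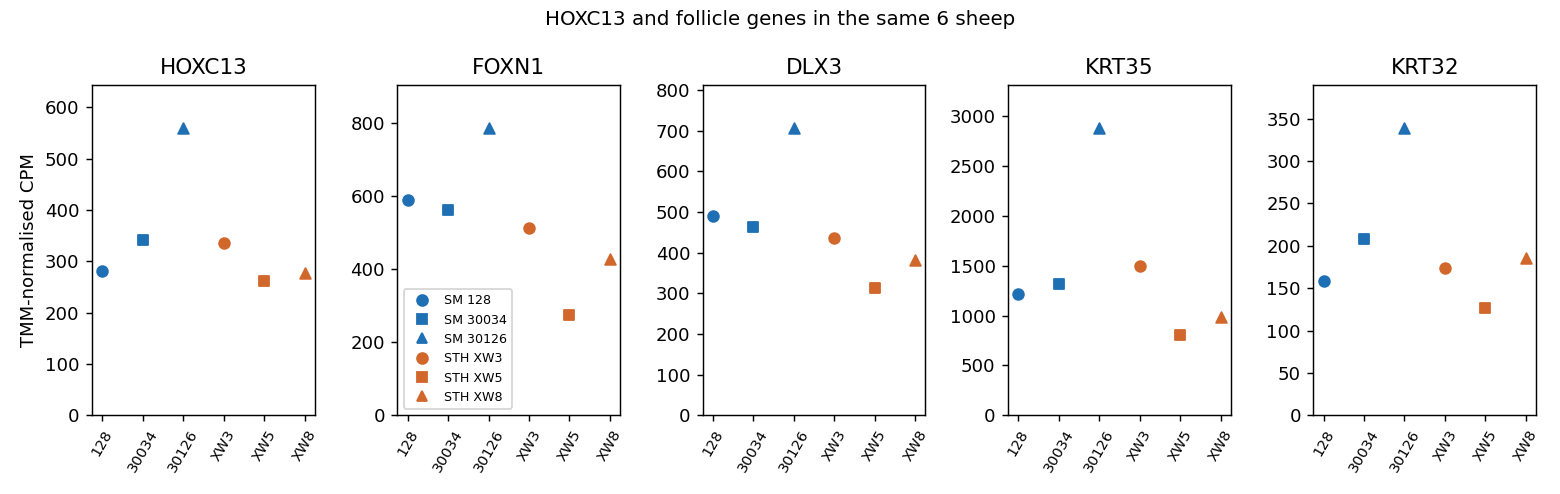
TMM-normalised CPM of HOXC13 and of the follicle genes FOXN1, DLX3, KRT35 and KRT32 in each sheep, on linear axes starting at 0 (blue SM, orange STH). Sheep 30126 is highest in each panel, at 559.5 CPM for HOXC13, and XW5 is lowest in each panel.

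The HOXB genes, which are used in the hindbrain and trunk, were the only cluster in which every tested gene had its estimate on the side of the SM sheep. Of all tested genes 51.4% had a log2 fold change above 0. The median log2 fold change of the 7 genes was 0.57, and 3 of the 7 did not overlap between the breeds, or 42.9% beside 12.3% of all tested genes that were higher in SM without overlap. The sum over the cluster was 20.6, 20.6 and 16.7 CPM per kilobase in the SM and 14.1, 10.8 and 14.1 in the STH sheep. Without XW5 only 6 of the 7 were above 0. The genes lie next to each other and are not independent, and no gene of the cluster passed the thresholds.

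HOXB7 was the most highly expressed HOXB gene. It had 12.99, 17.6 and 12.9 CPM in the SM and 11.1, 8.15 and 10.1 in the STH sheep, so that each SM animal was above each STH animal. The SM mean was 14.5 ± 2.69 CPM (SD, n = 3) and the STH mean 9.78 ± 1.495 CPM (SD, n = 3), for a log2 fold change of 0.57 (SE 0.21, unadjusted p = 0.0228, adjusted p = 0.255, edgeR). This was the smallest p of any HOX gene.

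HOXB6, the neighbour of HOXB7, had 6.18, 5.27 and 3.54 CPM in the SM and 2.14, 2.27 and 4.14 in the STH sheep. The breeds overlapped, since XW8 lay above sheep 30126, and the log2 fold change was 0.81 (SE 0.35, unadjusted p = 0.0490, adjusted p = 0.276, edgeR). HOXB8, on the other side of HOXB7, had 1.16, 0.908 and 1.61 CPM in the SM and 0.875, 0.474 and 0.530 in the STH sheep, without overlap but at 16 to 63 counts per sheep. Its log2 fold change was 0.97 (SE 0.47, adjusted p = 0.298, edgeR). HOXB2, the most anterior of the tested HOXB genes, had 4.26, 3.43 and 3.13 CPM in the SM and 2.66, 2.96 and 2.88 in the STH sheep, again without overlap, with a log2 fold change of 0.35 (SE 0.27, adjusted p = 0.466, edgeR).

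HOXB5 and HOXB9 overlapped between the breeds, with log2 fold changes of 0.35 and 0.16. HOXB3 varied most among animals of any HOX gene with counts in every sheep. It had 34, 15 and 15 counts in the SM and 20, 4 and 1 in the STH sheep, a log2 fold change of 1.24 with a standard error of 0.96.

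In the HOXA cluster 4 of the 5 tested genes had estimates below 0, where 51.4% of all tested genes were above 0. The median over the 5 was -0.22 on the log2 scale, or 0.03 without XW8. HOXA3 was the most highly expressed per kilobase, with 5.39, 4.05 and 3.90 CPM in the SM and 3.96, 4.81 and 6.78 in the STH sheep. The breeds overlapped, and the log2 fold change was -0.22 (SE 0.29, adjusted p = 0.659, edgeR). HOXA2 also overlapped, with a log2 fold change of -0.03.

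HOXA4 had the lowest log2 fold change of the HOX genes, -1.41 (SE 0.60), given as a description because it passed the count filter only through the STH sheep. It had 0.132, 0.177 and 0.204 CPM in the SM and 0.324, 0.379 and 0.695 in the STH sheep. Each STH animal was above each SM animal, but these values rest on 4, 8 and 8 counts against 10, 16 and 21, and the gene lies within the span of HOXA3.

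HOXA9 had the highest log2 fold change, 1.85 (SE 0.80, unadjusted p = 0.0478, adjusted p = 0.276, edgeR). It had 1.78, 0.155 and 1.45 CPM in the SM and 0.259, 0.332 and 0.331 in the STH sheep. SM sheep 128 and 30126 stood high and SM sheep 30034 was the lowest of all 6, so the breeds overlapped. HOXA10, its neighbour, had 4 and 8 counts in the same 2 SM sheep and none in the other 4 animals. Over the breed this is 12 counts against 0, or a ratio of 3.53 when 3 counts over the group are set in place of 0. This ratio is not a lower bound, because the 12 counts carry error themselves and both reads of a pair are counted.

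Among the HOXC genes other than HOXC13 the median log2 fold change was -0.0027, with 4 genes on each side. HOXC9 was higher in SM sheep by little and without overlap, at 8.86, 8.97 and 8.56 CPM against 8.20, 8.36 and 7.38, a log2 fold change of 0.14 (SE 0.18, adjusted p = 0.662, edgeR). HOXC4, HOXC5, HOXC6 and HOXC8 had log2 fold changes from -0.13 to 0.05. HOXC12 had the largest estimate in the cluster, 1.07 with a standard error of 1.02, and was high in 1 animal of each breed, sheep 128 at 1.62 CPM and XW8 at 0.794.

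In the HOXD cluster all 4 tested genes overlapped between the breeds. HOXD9, the most highly expressed of them and a gene of the trunk and proximal limb, had 11.8, 19.8 and 17.7 CPM in the SM and 17.3, 12.4 and 9.73 in the STH sheep. Its log2 fold change was 0.32 (SE 0.27, adjusted p = 0.495, edgeR). HOXD8, HOXD10 and HOXD3 had log2 fold changes of 0.06, 0.09 and -0.27. HOXD1 was seen in the SM sheep alone, with 2, 8 and 2 counts against none. On the same floor this is a ratio of 3.53, again not a lower bound.

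By position, the 6 tested anterior genes (paralogues 1 to 3) had a median log2 fold change of -0.13, the 10 central genes (4 to 8) of 0.05 and the 9 posterior genes (9 to 13) of 0.32. The posterior genes were above 0 in 8 of 9 cases, HOXC11 being the exception, beside 51.4% of all tested genes. Posterior genes of the same cluster lie near each other and are not independent. Their range from -0.37 to 1.85 includes the sparsely counted HOXA9, HOXC10 and HOXC12. The anterior median was 0.07 without sheep 30126 and 0.03 without XW8, and the posterior median was 0.14 without sheep 128, 0.15 without sheep 30034 and 0.18 without sheep 30126. Summed levels overlapped between the breeds in each of the 3 classes.

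HOX proteins bind DNA together with TALE homeodomain partners, and their clusters are kept silent by Polycomb and active by Trithorax complexes. Of the 9 HOX cofactors 0 passed, and 1, MEIS3, had an unadjusted p under 0.05, a share below the 18.0% of all tested genes. MEIS3 had 19.3, 14.97 and 19.2 CPM in the SM and 8.85, 9.998 and 11.3 in the STH sheep, without overlap, and a log2 fold change of 0.82 (SE 0.18, adjusted p = 0.203, edgeR). The median log2 fold change of the cofactors was -0.15, beside the 0.02 of all tested genes, and their summed level was 217 to 222 CPM in the SM and 216 to 229 in the STH sheep.

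Among the 20 Polycomb genes, whose median log2 fold change was 0.01, SUZ12, a core subunit of the complex that methylates histone H3, was the single one with an unadjusted p under 0.05, where 18.0% of all tested genes had one. It had 56.6, 37.2 and 34.7 CPM in the SM and 62.1, 67.5 and 56.8 in the STH sheep, a log2 fold change of -0.54 (SE 0.20, adjusted p = 0.256, edgeR). The breeds did not overlap, although sheep 128 and XW8 were next to each other. PHC3, a subunit of the other Polycomb complex, had the largest estimate of the list, a log2 fold change of -0.84 (SE 0.39). Of the 11 Trithorax and boundary genes found, none had an unadjusted p under 0.05, and the log2 fold changes lay between -0.30, for the methyltransferase KMT2C, and 0.19, with a median of -0.05.

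Retinoic acid, which activates HOX genes in the embryo, was covered by a list with ParaHox genes and other axis regulators, of which 11 of 14 were found and 7 tested, with a median log2 fold change of -0.14. RARA, a retinoic acid receptor, was higher in SM sheep with a log2 fold change of 0.37 at an unadjusted p of 0.0391. ALDH1A1, which makes retinoic acid, was lower by the largest estimate in the list. It had 47.2, 21.4 and 36.8 CPM in the SM and 73.2, 59.0 and 64.6 in the STH sheep. Its log2 fold change was -0.90 (SE 0.26, unadjusted p = 0.00801, adjusted p = 0.247, edgeR). GDF11, a signal that sets the trunk to tail transition, had a log2 fold change of -0.70 at an unadjusted p of 0.0480. At an unadjusted p under 0.05, 1 of the 7 tested genes was higher and 2 were lower in SM. Of all tested genes 7.21% were higher and 10.8% lower at that level. Without overlap 1 of the 7 was higher and 2 were lower in SM, beside 12.3% and 13.3% of all tested genes. None of the list passed, and the ParaHox genes CDX1, CDX2 and CDX4 had too few counts to be tested.

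Markers of skin compartments were summed in the same libraries. The 6 dermal fibroblast markers summed to 14610 to 20936 CPM in the SM and 16993 to 20971 in the STH sheep. Of these 6, 5 had estimates below 0, with a median log2 fold change of -0.18 over the list. Only DCN, at -0.35, had an unadjusted p under 0.05, and it alone was lower in SM without overlap. The summed levels were lower in all SM than in all STH sheep for the 6 smooth muscle markers (949 to 1074 against 1590 to 2004 CPM), for the 5 skeletal muscle markers found (37.6 to 53.6 against 59.3 to 101) with MYL1 at 0 in all sheep, and for the 5 adipocyte markers (30.8 to 65.8 against 139 to 174). NEB and CKM make up most of the skeletal muscle sum, and the breeds overlapped in both and in MYH2. ACTA1 did not overlap, at 0.562 to 1.78 CPM in the SM against 2.02 to 8.75 in the STH sheep. All 4 tested skeletal muscle markers had estimates below 0. At an unadjusted p under 0.05, 2 of these 4, ACTA1 and NEB, were lower in SM, beside 10.8% of all tested genes. The adipocyte sum is mostly FABP4, which had a log2 fold change of -1.84. It was the only 1 of the 4 tested adipocyte markers at an unadjusted p under 0.05. Of the other tested adipocyte markers PLIN1 and CIDEC had log2 fold changes of 0.14 and 0.40 and ADIPOQ of -0.88, with the breeds overlapping in these 3. For the 5 interfollicular epidermis markers found the summed levels overlapped, at 8638 to 11120 against 11053 to 18395 CPM. Of these markers KRT10 (523 to 627 against 793 to 1863 CPM) and IVL (205 to 266 against 415 to 628) were lower in all SM sheep. The summed level of the 5 sebaceous markers was higher in all SM sheep (507 to 957 against 280 to 379 CPM). That of the 5 endothelial markers overlapped (508 to 654 against 321 to 527). In each of these lists 2 of the 5 markers were higher in SM without overlap, beside 12.3% of all tested genes. All 6 smooth muscle markers were lower in SM without overlap, beside 13.3% of all tested genes. At an unadjusted p under 0.05, 4 of 5 tested epidermal and 5 of 6 smooth muscle markers were lower in SM sheep, beside 10.8% of all tested genes. Higher in SM were 3 of 5 sebaceous and 3 of 5 endothelial markers, beside 7.21%. No marker passed the thresholds, where 0.0% of all tested genes passed. The study's own EdgeR analysis, at its thresholds, listed MYH11, ACTG2, DES, ACTA1, NEB, KRT1, KRT10, IVL and FABP4 as lower in SM. It listed AWAT1, DGAT2L6 and ELOVL3 as higher. Melanocyte markers were low, summing to 3.74 to 5.78 CPM over both breeds. The summed levels of the 5 leukocyte markers overlapped, at 81.6 to 108 and 97.0 to 106 CPM. The part of these compartments in the HOXB values, and in any other HOX difference, was not tested.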

How the data were processed

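Skin RNA of 3 SM and 3 STH sheep was sequenced as 1 library per sheep. The authors checked the reads with FastQC, mapped them to Oar_v4.0 in CLC Genomics Workbench with default parameters, and deposited a total count per gene, a whole number without normalization. The authors also deposited RPKM, used here for exon lengths and for rows without a count. Exon length was the whole number implied by count and RPKM for all 22114 genes with both, within 0.01 bases. The deposited TPM and a scaled CPM were not used. Identifiers were matched to RefSeq names for 21630 of 28394 rows.

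The 15320 genes reaching 10 counts in 3 or more sheep were tested with edgeR 4.0.16 in R 4.3.3 (TMM, estimateDisp, glmQLFit, glmQLFTest, breed as the only term), after trial on simulated data. The standard error is the log2 fold change over the square root of F. The fold threshold of 1.5 is that of the study. Per-sheep values are TMM-normalised CPM. Alternatives were DESeq2 1.42.0, the likelihood ratio test, other scalings and filters, the gene share of fragments as a covariate and each sheep left out.

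The members and gene lists were chosen with earlier results of these data known. All members enter the counts and sums, and 1 HOX gene is not reported here by itself. Values in every sheep are given for HOXC13 and for the member of each cluster with the highest median per kilobase. They are also given for members at an unadjusted p under 0.05 and for the largest estimates. Those of HOXB2, HOXB8, HOXC6, HOXC9 and HOXC12 were added after their values were seen. The values of HOXC8 and the counts of HOXA10, HOXB3, HOXD1 and HOXD13 also lie outside this rule. Total counts were 28870583 to 44645091 per sheep. The sheep are separate animals.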

Additional observations from a re-analysis of the deposited data

Results flagged for a closer look

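The deposited RPKM is above 0 in all 6 sheep for 6 rows inside the HOX clusters whose total count is 0 in all 6 sheep, so that these rows are outside every test on counts. They were picked out because they hold signal in a column that the comparisons do not use. Their median RPKM was 3.67 for LOC105614720, which lies beside HOXC9 on the opposite strand, 1.42 for LOC105608416, which overlaps HOXB3 on the opposite strand, and 0.625 for LOC105609054 in the HOXD cluster. It was 0.515 for LOC105606593 in the HOXA cluster, 0.0823 for LOC105611004 in the HOXC cluster and 0.0510 for LOC106991423 in the HOXB cluster. LOC105614720 ranged from 2.72 to 3.90 RPKM over the 6 sheep.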

How the results depend on the processing

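In each of the 14 alternatives 0 HOX genes passed both thresholds, and HOXC13 ranked first among HOX genes in each of the 8 alternatives for levels. The HOX genes at an unadjusted p under 0.05 and higher in SM sheep numbered between 0 (without XW5) and 3 on leaving out single sheep, with 1 without sheep 30034. The gene lower in SM sheep, HOXA4, was lost, leaving 0, with DESeq2, without a filter, with the gene share as a covariate, and on leaving out any 1 SM sheep. With 10 counts in all 6 sheep, and on leaving out any 1 STH sheep, the number was also 0. HOXA4 was not tested there, so its loss was fixed by the filter. The log2 fold change of HOXA3 was 0.017 without XW8. The share of the HOXC cluster was 85.8% without division by exon length, against a median of 82.8%. HOXC13 kept its direction in all 14, from 0.10 to 0.63 (0.11 to 0.63 as each sheep was left out). The median log2 fold change of the HOXB cluster ranged from 0.40 to 0.74 and that of the HOXC cluster from -0.07 to 0.19. The median of the anterior genes ranged from -0.23 to 0.07 and that of the posterior genes from 0.14 to 0.40. That of the HOXA cluster ranged from -0.38 to 0.03 and that of the HOXD cluster from -0.17 to 0.22. The newer dispersion estimate was added after seeing the data. No paired analysis was possible because the labels give no number shared between the breeds. Genes at fewer than 20 counts in some sheep, among them HOXA4, HOXA9, HOXB3, HOXB8 and HOXC10 to HOXC12, are limited by depth.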

Other observations

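Between the outermost HOX genes of the clusters lie 14 rows that are not members by symbol. A pair of these, both HOX genes, is listed under other symbols, and the RefSeq name table pairs their identifiers with HOXA7 and HOXD11. LOC105606599 (HOXA7), which spans 68845166 to 68861962 of chromosome 4 in Oar_v4.0, had 1.59, 2.04 and 2.83 CPM in the SM and 1.23, 0.971 and 1.26 in the STH sheep, in the same order of animals. Each SM animal was above each STH animal, and the log2 fold change was 0.90 (SE 0.37, adjusted p = 0.267, edgeR), for a row that HOXA9 covers on the same strand. LOC101104380 (HOXD11), on chromosome 2 from 132909273 to 132915738, had between 0.331 and 1.28 CPM, with a log2 fold change of 0.63 (SE 0.51, adjusted p = 0.489, edgeR). The microRNA rows MIR10A and MIR10B, which lie inside the HOXB and HOXD clusters, had neither a count nor an RPKM above 0 in any sheep. HOXA6, HOXB4 and HOXD4 were not analysed here.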
